A study of Mus musculus with 4 samples.

Results

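The genes of Polycomb repressive complex 2 (PRC2) were examined in bulk RNA-seq of embryonic stem cell derived neurons. The members are 10 genes taken by symbol, of the 34968 symbols shared by all libraries: the methyltransferases Ezh1 and Ezh2, the core subunits Eed, Suz12, Rbbp4 and Rbbp7, and the accessory subunits Jarid2, Mtf2, Phf1 and Phf19. The symbols of all 10 were found in every file, Phf1 and Phf19 with a value of 0 in 1 library, and 9 passed the filter of at least 1 TPM (a transcript level corrected for length and library total) in 2 or more libraries. Phf19 did not pass and is described by its values alone.

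The neurons came from a male mouse ES line on C57/BL6 that carries Dlx6a-Cre and the conditional Ai9 tdTomato reporter, so that forebrain GABAergic lineages are labelled. In the N/D line a Nestin promoter drives Nkx2-1 together with a tetracycline transactivator, which switches on Dlx2. In the N/D/S line the transactivator switches on Dlx2 and V5-tagged St18. Both lines were grown from drug-selected clones, and the number of clones behind the libraries is not given in the sources used here. Embryoid bodies of both were treated with the Wnt inhibitor XAV-939 and the hedgehog agonist SAG, and tdTomato+ cells were sorted on day 12. The comparison asked how added St18 alters the transcriptome, with 2 libraries per line.

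PRC2 places methyl groups on lysine 27 of histone H3, a mark that canonical PRC1 reads and that keeps developmental genes of other lineages silent. Ezh2 and Ezh1 are alternative catalytic subunits, Eed reads the mark and stimulates the enzyme, Suz12 is the scaffold, and Rbbp4 and Rbbp7 are histone-binding proteins that are also used by other chromatin complexes. Mtf2, Phf1 and Phf19, the Polycomb-like proteins, and Jarid2 with Aebp2 define alternative forms of the complex and help it to reach its targets. In neural development, Ezh2 is known as the enzyme of dividing progenitors, while Ezh1 is retained in cells that have stopped dividing.

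The libraries differed in ways that touch all values given here. St18 stood at 28.5 TPM (replicate 1) and 26.6 TPM (replicate 2) under the N/D label, against 44.5 and 15.9 TPM under the N/D/S label, so St18 did not separate the lines, and each direction below rests on the labels. The library labelled N/D replicate 1 stood apart, with 13426 genes above 0 against 17118 to 20750 in the other libraries. Pan-neuronal markers were present in every library, where the 8 listed genes summed to between 3086 and 4733 TPM. Of the 8 GABAergic markers found, 7 reached 10 TPM in every library. The 5 pluripotency markers summed to 0.247 and 3.597 TPM in the replicate 1 libraries labelled N/D and N/D/S, and to 184 and 292 TPM in the replicate 2 libraries, most of it Dppa5a. The 7 glial markers summed to 0.003 and 12.8 TPM in replicate 1 and to 117 and 42.3 TPM in replicate 2, in the same order. Nothing states that the libraries came from separate cultures, so p-values measure only the spread between these libraries, which may be technical. In sorted bulk samples, fewer cells of a type and less RNA per cell cannot be told apart.

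Transcripts of 8 of the 10 members were listed above 0 in all libraries, and by mean level the histone-binding subunits and Mtf2 were at the top and Phf19 near 0. At least 10 TPM was reached by 8 and 9 of the 10 members under the N/D label and by 9 and 7 of them under the N/D/S label, replicate 1 before replicate 2. By mean TPM over the 4 libraries the order was Rbbp4 (200), Rbbp7 (113), Mtf2 (103), Ezh2 (63.5), Jarid2 (33.2), Eed (32.9), Ezh1 (22.3), Suz12 (17.6), Phf1 (11.5) and Phf19 (0.709). The steps from Rbbp4 to Rbbp7, from Mtf2 to Ezh2 and from Ezh2 to Jarid2 held in all 4 libraries. The neighbours Jarid2 and Eed, and also Ezh1 and Suz12, each kept their order in 2 of the 4 libraries and cannot be ranked. Ranked among the 12975 tested genes, Rbbp4 lay between the 91.3 and 94.2 percentile and Suz12 between the 50.4 and 56.7 percentile. Of the members above 0 in every library, Eed ranged most, from the 19.5 to the 78.1 percentile.

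**Figure D1:**
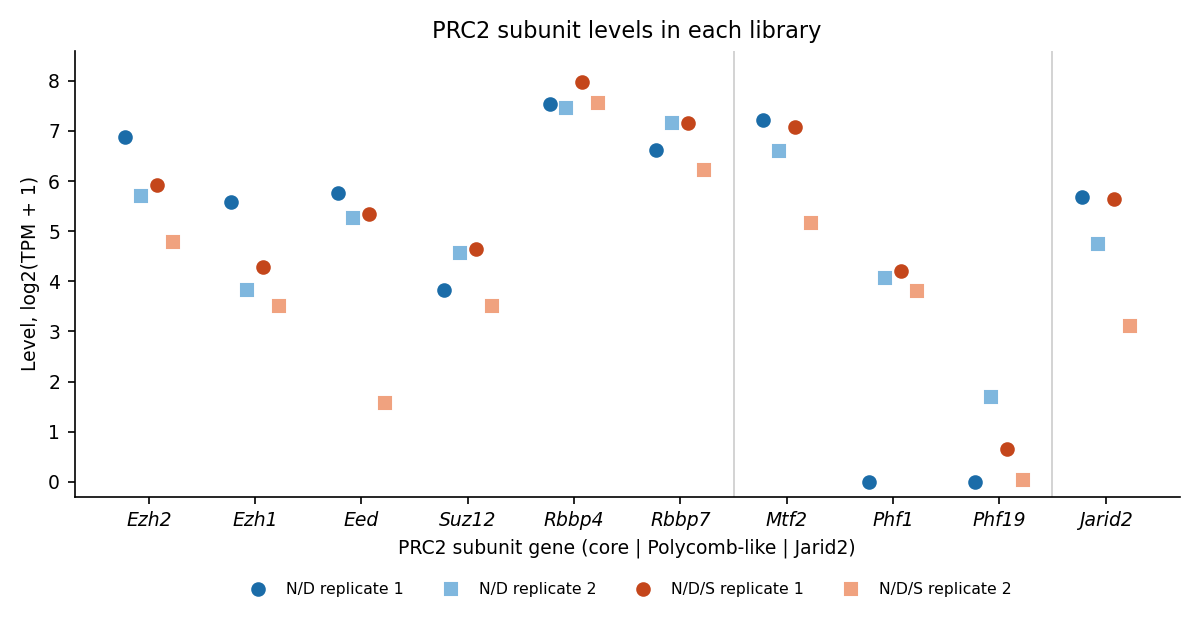
Level of each PRC2 subunit gene on the log2(TPM + 1) scale (vertical axis) in each of the 4 libraries (points, circles for replicate 1 and squares for replicate 2). Rbbp4 lies highest and within a narrow band, Phf1 and Phf19 are listed at 0 in N/D replicate 1, and Eed drops to 1.99 TPM in N/D/S replicate 2.

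Both methyltransferases were measured in every library, and Ezh2 was the more abundant each time. Ezh2, on chromosome 6 of GRCm38 (47530139 to 47595341, minus strand), had TPM values of 117 (replicate 1) and 51.0 (replicate 2) under the N/D label, against 59.9 and 26.4 under the N/D/S label. Each library labelled N/D/S was thus lower than the N/D library of its number, by a TPM ratio of 0.514 in replicate 1 and 0.519 in replicate 2. The groups overlapped all the same, since N/D/S replicate 1 lay above N/D replicate 2. The log2 difference of N/D/S minus N/D, on the log2(TPM + 1) scale used for all differences here, was −0.93 (standard error 1.05, 95% interval −3.42 to 1.55, limma, Benjamini-Hochberg adjusted p = 1.0). Ezh1, on chromosome 11 (101191115 to 101226463, minus strand), had, in the same order, TPM values of 47.1 and 13.1 under the N/D label, against 18.6 and 10.4 under the N/D/S label. Under N/D/S it was lower for both numbers, with TPM ratios of 0.394 and 0.796, and here too the groups overlapped. Its log2 difference was −0.80 (standard error 1.08, 95% interval −3.36 to 1.76), and it turned to 0.085 without N/D replicate 1.

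The balance of Ezh1 and Ezh2 varied less over the libraries than their levels did. Ezh2 made up 71.2% and 79.6% of the summed Ezh1 and Ezh2 TPM in the N/D libraries and 76.4% and 71.7% in the N/D/S libraries. A TPM ratio taken within a library does not depend on scaling between libraries. The log2 ratios add 1 to each TPM, so they are not fully free of it. The TPM ratio of Ezh2 to Ezh1 lay between 2.47 and 3.89, while each gene's own TPM ranged over 4.41-fold (Ezh2) and 4.52-fold (Ezh1). The mean log2 ratio was 1.59 ± 0.42 (SD, n = 2) in N/D and 1.45 ± 0.27 (SD, n = 2) in N/D/S. The difference of −0.13 gave p = 0.667 in a two-sided exact permutation test, which cannot go below 0.333 with 2 libraries against 2. This difference turned to 0.16 without N/D replicate 2 and to 0.054 without N/D/S replicate 2.

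The excess of Ezh2 was measured beside genes of cell division. In the N/D libraries the 19 listed cell division genes summed to 286 and 806 TPM, and in the N/D/S libraries to 451 and 445 TPM. The library with the most Ezh2, N/D replicate 1, was the one with the lowest sum, and 7 of the 19 genes were listed at 0 there, among them Mki67, Cdk1 and Plk1. Of all tested genes, 3389 of 12975 were listed at 0 in that library. No other library listed a gene of this list at 0. The part of dividing cells in the Ezh2 level was not tested.

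Eed, the subunit that binds the methyl mark, had the widest range of the members that were above 0 in every library. It lies on chromosome 7 (89954654 to 89980983, minus strand). Libraries labelled N/D had 52.9 and 37.3 TPM, and those labelled N/D/S had 39.5 and 1.99 TPM. N/D/S replicate 2 alone was low, at a TPM ratio of 0.0533 to N/D replicate 2, and the other libraries lay close together. The log2 difference was −2.05 (standard error 1.39, 95% interval −5.33 to 1.24, unadjusted p = 0.184 from limma), and without N/D/S replicate 2 it was −0.17. Suz12, the scaffold, on chromosome 11 (79993106 to 80034123, plus strand), had TPM values of 13.2 and 22.7 under the N/D label, against 24.0 and 10.3 under the N/D/S label. Replicate 1 was higher and replicate 2 lower under N/D/S, and its log2 difference was −0.12 (standard error 1.02). The Suz12 difference turned to 0.24 without N/D replicate 2 and to 0.45 without N/D/S replicate 2. The Eed to Suz12 TPM ratio was 4.01 and 1.65 under the N/D label, against 1.65 and 0.193 under the N/D/S label. The summed Ezh1 and Ezh2 TPM was 12.4 times that of Suz12 in N/D replicate 1 and between 2.83 and 3.57 times in the other libraries.

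Rbbp4 was the steadiest member, and the 1 member of 10 whose groups did not overlap. It lies on chromosome 4 (129307100 to 129335370, minus strand). Libraries labelled N/D had 185 and 174 TPM and those labelled N/D/S had 252 and 189 TPM, so both N/D/S libraries lay above both N/D libraries. The gap was narrow, 189 against 185 TPM at its closest. Of all tested genes 16.9% had groups that did not overlap, 8.69% with N/D/S higher and 8.23% with N/D/S lower, so 1 member of 10 is not more than the background. The log2 difference was 0.28 (standard error 0.96, 95% interval −1.99 to 2.55). Rbbp7, on the X chromosome (162760402 to 162779092, plus strand), had TPM values of 96.7 and 141 under the N/D label, against 141 and 73.4 under the N/D/S label. Replicate 1 was higher and replicate 2 lower under N/D/S. Rbbp7 made up 34.4% and 44.7% of the summed Rbbp4 and Rbbp7 TPM in N/D and 35.9% and 27.997% in N/D/S. The difference of the mean log2 ratio of Rbbp7 to Rbbp4 was −0.48 (exact permutation p = 0.667, two-sided, where 0.333 is the smallest possible).

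Among the Polycomb-like subunits, Mtf2 carried most of the transcript in every library. Mtf2, on chromosome 5 (108065674 to 108109004, plus strand), had TPM values of 148 and 95.5 under the N/D label, against 135 and 34.8 under the N/D/S label. Under N/D/S it was lower for both numbers, by a TPM ratio of 0.911 in replicate 1 and 0.365 in replicate 2, with a log2 difference of −0.78 (standard error 1.10). Phf1, on chromosome 17 (26933052 to 26937908, plus strand), was listed at 0 in N/D replicate 1 and had 15.9 TPM in N/D replicate 2, against 17.3 and 12.9 TPM in N/D/S. The libraries other than N/D replicate 1 thus lay close together. Phf19, on chromosome 2 (34893757 to 34914026, minus strand), was listed at 0 in N/D replicate 1 and reached 2.23 TPM in replicate 2 of that line, against 0.570 and 0.0314 TPM under the N/D/S label. Mtf2 made up 84.1% of the summed Polycomb-like TPM in N/D replicate 2, and 88.3% and 72.9% under the N/D/S label. In N/D replicate 1 it was the only one of these genes listed above 0.

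Comparisons of Phf1 changed with the library in which it was listed at 0. Its log2 difference was 1.96 (standard error 1.45, unadjusted p = 0.218 from limma) with all libraries and −0.08 without N/D replicate 1. When N/D replicate 2 was left out instead, so that the value of 0 stood alone for N/D, it was 3.999 (limma, Benjamini-Hochberg adjusted p = 0.00592). The difference of the mean log2 ratio of Phf1 to Mtf2 was 2.74 (exact permutation p = 0.667, two-sided), and without N/D replicate 1 it was 0.39. Of the 7 members that reached 10 TPM in all of the remaining libraries, Phf1 alone was listed at 0 in N/D replicate 1, and 9.99% of all genes at that level were.

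**Figure D2:**
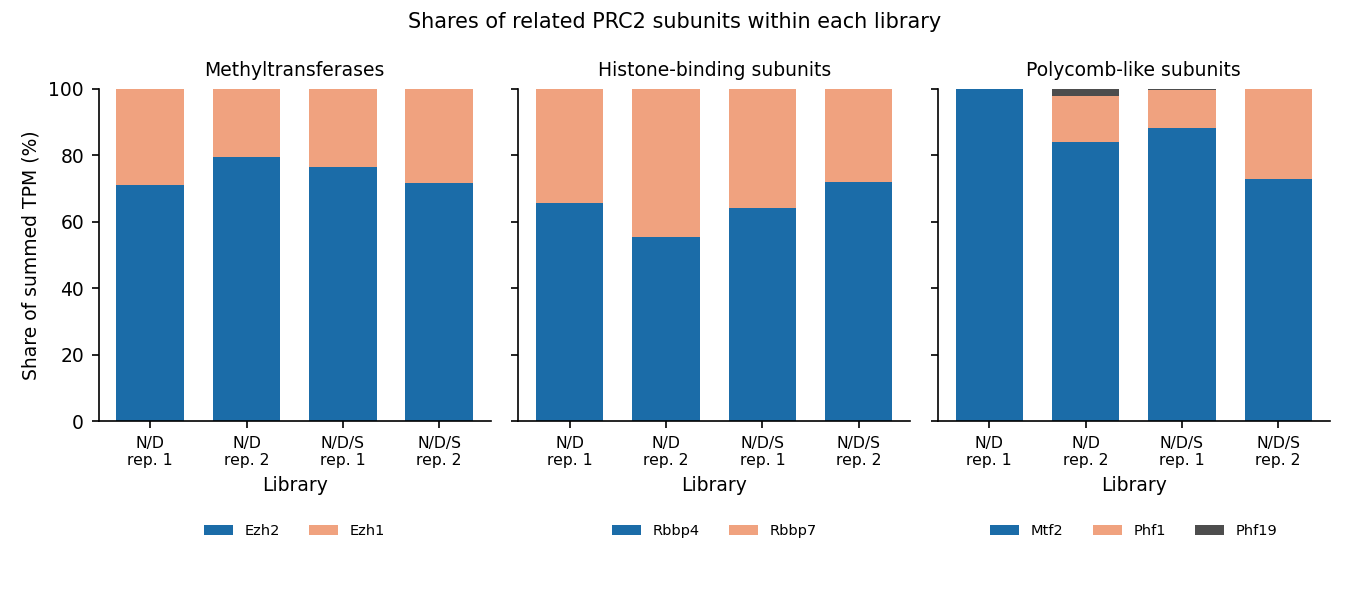
Share of the summed TPM (vertical axis, percent) taken by each of a set of related subunits within each library (bars, 1 per library). Ezh2 holds 71.2% to 79.6% of the methyltransferase transcript, Rbbp4 the larger part of the histone-binding subunits, and Mtf2 at least 72.9% of the Polycomb-like subunits.

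Jarid2, an accessory subunit that lacks demethylase activity and helps to recruit PRC2, lies on chromosome 13 (44729474 to 44921643, plus strand). It had TPM values of 50.4 and 26.0 under the N/D label, against 48.7 and 7.63 under the N/D/S label. The replicate 1 libraries nearly coincided, and N/D/S replicate 2 was lower than N/D replicate 2 by a TPM ratio of 0.294. Its log2 difference was −0.85 (standard error 1.19), and without N/D/S replicate 2 it turned to 0.42. Mtf2 turned as well without that library, to 0.18. Aebp2, which joins PRC2 in the same form as Jarid2, was no member but had TPM values of 14.6 and 6.50 under the N/D label, against 10.5 and 1.29 under the N/D/S label, so Jarid2 stood at between 3.44 and 5.90 times its TPM in every library.

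Across the members, the order of the libraries repeated. Ezh1, Ezh2, Eed, Jarid2 and Mtf2 were each highest in N/D replicate 1, followed by N/D/S replicate 1 and then by N/D replicate 2, with N/D/S replicate 2 lowest. This order was noticed in the values, and 9.13% of all tested genes had it. The tested genes include those listed at 0 in N/D replicate 1, which cannot have the order. It rests on close values for Eed, with 39.5 TPM in N/D/S replicate 1 against 37.3 TPM in N/D replicate 2. The same holds for Jarid2, with 50.4 TPM in N/D replicate 1 against 48.7 TPM in N/D/S replicate 1. The order requires a lower TPM under N/D/S in each replicate number. These 5 of the 10 members were the only ones with that, and 17.9% of tested genes had it. Only Rbbp4 was higher within both, as were 15.9% of tested genes. N/D/S replicate 2 was the lowest library for 7 of 10 members, 5 of them by this order, and for 29.2% of tested genes. Across numbers the sign depended on the pair. N/D/S replicate 1 was above N/D replicate 2 for 8 of 10 members, 5 of them by this order, and for 56.2% of tested genes. The order also places N/D/S replicate 2 below N/D replicate 1 for all 5, so that direction is no further result. The log2 differences lay between −4.17 (Eed) and −2.05 (Mtf2), where the median of all tested genes was 0.51. The labels tie the replicate numbers to no shared day or culture. Libraries of the same number did share a count of listed symbols, 35197 for replicate 1 and 35204 for replicate 2. Pluripotency and glial markers were also higher in the replicate 2 libraries. What the numbers stand for is not stated. The median log2 difference of all tested genes was 1.14 within replicate 1 and −0.62 within replicate 2, against −0.95 and −0.92 for Ezh2. In replicate 1 the members that were lower therefore had the opposite sign to this median, and in replicate 2 the same sign. The medians of 1.14 and 0.51 include 3389 tested genes listed at 0 in N/D replicate 1. Such genes cannot be lower in an N/D/S library. The order puts N/D replicate 1 highest for the 5 members, so their direction in replicate 1 is no further result. Whether they differed from other genes detected in that library was not tested.

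The promoters of these 5 genes and of Rbbp4, which did not follow them, are shown because the former shared 1 order of the libraries. Each line gives the 250 bases before the most upstream start in RefSeq on GRCm38.p6, read in the direction of the gene, with CCAAT or its complement ATTGG in capitals. RefSeq and GENCODE place some starts differently, so the windows of Ezh2 and Jarid2 lie inside the GENCODE gene positions given above, and that of Eed overlaps the edge of its gene.
Ezh2, chr6:47595031-47595280, minus strand: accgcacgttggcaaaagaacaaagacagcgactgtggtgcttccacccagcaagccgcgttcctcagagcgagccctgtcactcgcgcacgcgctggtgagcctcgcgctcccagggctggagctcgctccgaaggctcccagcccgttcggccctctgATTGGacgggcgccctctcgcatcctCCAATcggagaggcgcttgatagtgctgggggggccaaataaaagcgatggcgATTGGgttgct
Ezh1, chr11:101226464-101226713, minus strand: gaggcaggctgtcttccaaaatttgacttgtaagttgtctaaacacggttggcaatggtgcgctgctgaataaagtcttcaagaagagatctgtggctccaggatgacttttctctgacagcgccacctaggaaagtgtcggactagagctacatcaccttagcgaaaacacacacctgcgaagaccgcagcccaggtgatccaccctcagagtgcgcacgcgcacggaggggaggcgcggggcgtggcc
Eed, chr7:89980977-89981226, minus strand: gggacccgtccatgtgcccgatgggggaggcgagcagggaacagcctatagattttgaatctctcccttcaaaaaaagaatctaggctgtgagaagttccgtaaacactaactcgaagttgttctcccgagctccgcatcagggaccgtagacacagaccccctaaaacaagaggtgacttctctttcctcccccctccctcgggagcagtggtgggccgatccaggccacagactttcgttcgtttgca
Mtf2, chr5:108065424-108065673, plus strand: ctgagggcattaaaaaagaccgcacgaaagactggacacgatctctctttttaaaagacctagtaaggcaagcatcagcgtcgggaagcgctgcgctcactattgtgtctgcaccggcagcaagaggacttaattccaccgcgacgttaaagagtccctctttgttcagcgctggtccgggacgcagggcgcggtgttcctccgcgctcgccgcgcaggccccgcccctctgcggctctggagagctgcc
Jarid2, chr13:44730524-44730773, plus strand: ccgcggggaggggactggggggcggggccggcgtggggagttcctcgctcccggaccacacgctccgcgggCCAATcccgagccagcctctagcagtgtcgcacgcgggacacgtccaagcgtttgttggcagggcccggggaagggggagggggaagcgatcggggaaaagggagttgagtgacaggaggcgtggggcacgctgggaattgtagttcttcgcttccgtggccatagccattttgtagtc
Rbbp4, chr4:129335371-129335620, minus strand: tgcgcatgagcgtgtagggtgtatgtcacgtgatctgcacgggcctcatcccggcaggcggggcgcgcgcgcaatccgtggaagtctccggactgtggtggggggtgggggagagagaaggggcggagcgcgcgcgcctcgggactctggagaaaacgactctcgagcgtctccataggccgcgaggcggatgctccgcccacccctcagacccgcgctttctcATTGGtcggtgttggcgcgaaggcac
All 10 members matched a RefSeq promoter. Within these windows Ezh2 held CCAAT 3 times, Jarid2 and Rbbp4 once each, and Ezh1, Eed and Mtf2 not at all. Over the 10 members 5 windows held it, and 33.8% of the 32851 RefSeq promoters of that length did, on either strand. A search for the E2F words TTTGGCGC, TTTCGCGC, TTTCCCGC and TTTGCCGC on both strands found 1 match each in Suz12 and Phf19 and none in the 6 promoters shown, against 1.86% of all promoters. The GC box GGGCGG stood in 7 of the 10 and in 32.7% of all promoters. The 5 genes that shared the library order thus held no motif of these 3 in common. The ratio of observed to expected CpG ranged from 0.652 (Eed) to 1.10 (Suz12) in the members, and its median over all promoters was 0.373.

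In the test across all genes no member passed. The share of tested genes past an adjusted p of 0.05 was 0.0% (0 of 12975, limma with Benjamini-Hochberg adjustment), and for the members it was 0 of 9. At an unadjusted p under 0.05 it was 0.0617% of tested genes and 0 of 9 members, whose unadjusted p from limma ranged from 0.184 (Eed) to 0.907 (Suz12). The log2 difference was below 0 for 7 of the 9 tested members and above 0 for Rbbp4 and Phf1. The median of the 9 was −0.78, and that of all tested genes was 0.26. This gap depended on N/D replicate 1, without which the medians were −0.38 for the members and −0.29 for all tested genes. Without N/D/S replicate 2 the members' median turned to 0.27, against 0.57 for all tested genes. Every 95% interval spanned 0 and reached at least 1.24 in one direction and −1.47 in the other. At this number of libraries the fitted interval of each member thus covers changes of more than 2-fold in either direction. Limma draws the standard errors partly from the spread of all tested genes, so these intervals are not set by each member's own values alone. Rbbp4, for example, had a residual standard deviation of 0.21 within the lines but a standard error of 0.96. Each of the 9 kept the sign of its difference under the alternatives that kept all 4 libraries and could test it.

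**Figure D3:**
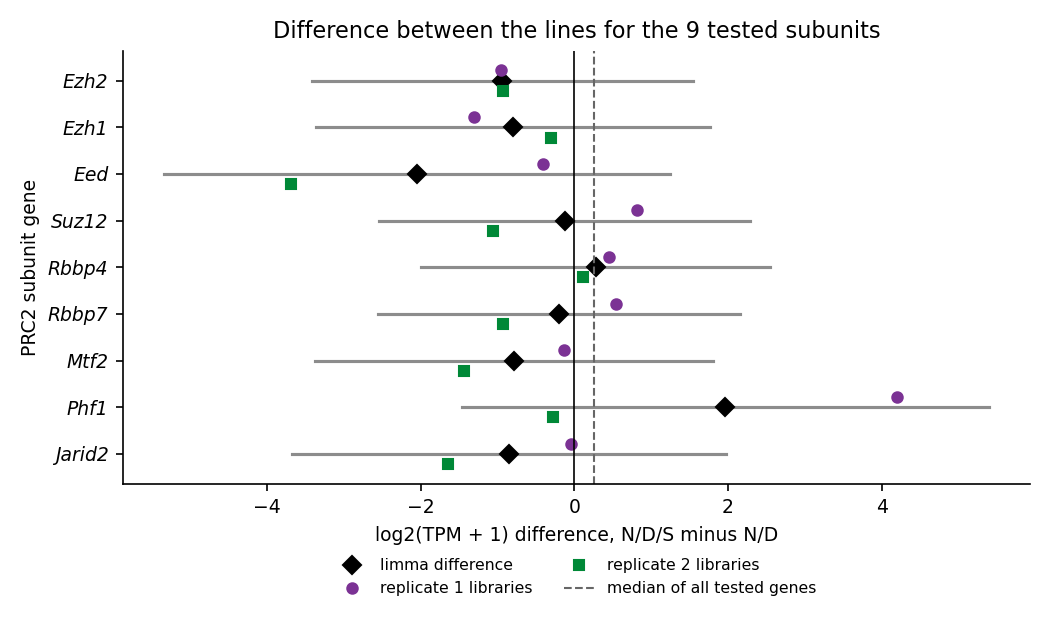
Difference of N/D/S minus N/D on the log2(TPM + 1) scale (horizontal axis) for the 9 tested subunits, with the limma estimate (diamonds), its 95% interval (lines) and the difference within each replicate number (circles and squares). All intervals cross 0, both points of Ezh2 lie near −0.9, and those of Suz12, Rbbp7 and Phf1 lie on opposite sides of 0.

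Genes that work with PRC2 were read from the same fit, by lists of textbook partners. No gene of any of these lists passed an adjusted p of 0.05 in limma with Benjamini-Hochberg adjustment. Of the 5 other PRC2 partners, 4 were tested, with a median difference of −0.38, which ranged from −1.44 without N/D/S replicate 1 to 0.68 without N/D/S replicate 2. Aebp2 (−1.08), Lcor (−0.29) and Lcorl (−0.47) were below 0, and Epop, an elongin-binding partner listed at 0 in N/D replicate 1, was at 1.77. Ezhip, an inhibitor of the complex found under its older symbol AU022751, had 0.159 TPM in N/D replicate 2 and was listed at 0 elsewhere. Of the demethylases that remove the mark, Kdm6a had TPM values of 0.186 and 9.55 under the N/D label, against 22.8 and 4.86 under the N/D/S label, and Kdm6b had TPM values of 1.90 and 5.98 under the N/D label, against 4.74 and 2.89 under the N/D/S label. Both were lowest in N/D replicate 1, as were 56.3% of all tested genes.

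The 12 canonical PRC1 genes, which act on the mark that PRC2 leaves, had a median difference of 0.51, with 9 above 0 and 3 below. The extremes were the chromodomain readers Cbx7 (2.70, but 0.33 without N/D replicate 1) and Cbx6 (−1.32, or −0.84 without that library). Cbx7 and Cbx8 were listed at 0 in N/D replicate 1, and without that library the median was −0.06, against 1.06 without N/D replicate 2. With upper quartile scaling it was 0.30, and over genes reaching 1 TPM in all libraries 0.064. The 13 genes of NuRD and CAF-1, which share Rbbp4 and Rbbp7 with PRC2, had a median of 0.17, with 7 above 0 and 6 below. It turned to −0.33 without N/D replicate 1, to −0.31 without N/D/S replicate 1, to −0.05 with upper quartile scaling and to −0.20 with at least 1 TPM in every library, so it gives no direction. The 19 cell division genes had a median of 0.033, with 10 above 0 and 9 below, and this median was no stable value. Leaving out N/D replicate 1 gave −0.75 and leaving out N/D replicate 2 gave 1.29, and it was 0.58 with a pseudocount of 0.1, −0.19 with quantile normalization and −0.41 with at least 1 TPM in every library. None of the 13 NuRD and CAF-1 genes and none of the 19 cell division genes had the library order of Ezh2, whereas 2 of the 12 PRC1 genes, 1 of the 4 tested partners (Aebp2), 1 of the 8 pan-neuronal markers (Stmn2) and 3 of the 8 neural progenitor markers (Hes1, Vim and Pax6) did, against the 9.13% of all tested genes. Of the other progenitor markers, Hes5, Sox2, Fabp7 and Notch1 were lowest in N/D replicate 1, as were most tested genes. The progenitor markers summed to 464 and 1186 TPM in N/D and 502 and 707 TPM in N/D/S, and their part in the Ezh2 order was not tested. Of 17 lineage genes known to be silenced by PRC2, 14 were under 1 TPM in every library, and the highest was Foxa2 with 10.6 TPM in N/D replicate 2. Their summed TPM was 0.171 and 14.6 in the N/D libraries and 2.14 and 12.3 in the N/D/S libraries, so it was higher in the replicate 2 libraries, where pluripotency and glial markers were also higher.

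**Figure D4:**
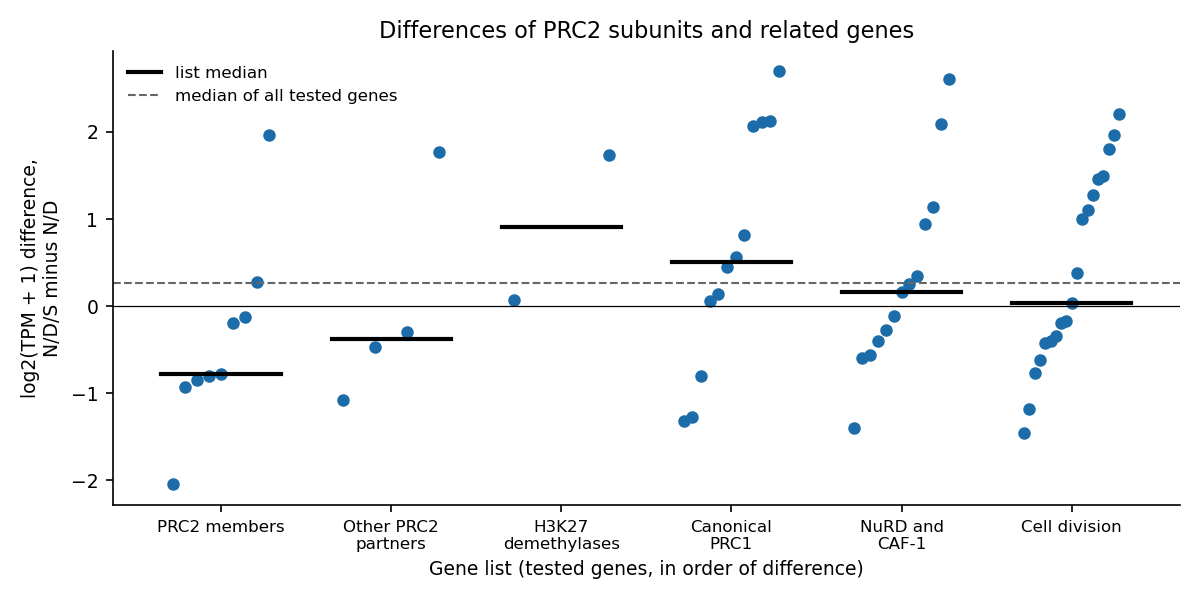
Difference of N/D/S minus N/D on the log2(TPM + 1) scale (vertical axis) for each tested gene (points) of the PRC2 members and 5 related lists, with list medians (bars) and the median of all tested genes (dashed line). The PRC2 members have a median of −0.78 and canonical PRC1 genes a median of 0.51 (−0.38 and −0.06 without N/D replicate 1), and no gene shown passed the test.

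Genes with the pattern most like that of the methyltransferases were sought among the 7803 tested genes with a mean of at least 10 TPM, by the root mean square difference of centred log2(TPM + 1) over the 4 libraries. The closest to Ezh2 were Rfxap (0.0328), Scrg1 (0.0378) and Timmdc1 (0.0391). Rfxap, for example, had TPM values of 177 and 78.1 under the N/D label, against 89.1 and 42.3 under the N/D/S label. The closest to Ezh1 were Ak4 (0.0367), Fam98c (0.0703) and Egfem1 (0.0718). Ezh1 was 300th in likeness to Ezh2 at 0.257, Mtf2 602nd at 0.343 and Jarid2 1351st at 0.496. Eed, which shared the library order, was only 4866th at 1.10, behind Rbbp7 (2732nd), Rbbp4 (3055th) and Suz12 (3199th), which did not. With 4 libraries such likeness is a description of these libraries only.

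How far a member's reads could be shared with other genes was measured in GENCODE M21 transcripts, as the share of its distinct stretches of 31 bases, the length kallisto compares by default, that also occur in another gene on either strand. No member shared such a stretch with another member, so reads of Ezh1 and Ezh2, or of Rbbp4 and Rbbp7, could be told apart by sequence. The share was 0.0% for Phf19, 0.24% for Jarid2, 0.507% for Ezh1, 2.18% for Ezh2, 3.68% for Suz12, 6.42% for Mtf2 and 7.61% for Eed. It was larger for Rbbp7 (16.5%), Rbbp4 (1940 of 8800 stretches) and Phf1 (32.5%), so their levels are less certain. All of the shared stretches of Phf1 lay in Cuta, its overlapping neighbour. Cuta had 203 TPM in N/D replicate 1, where Phf1 was listed at 0, and 176 to 287 TPM in the other libraries. Whether reads of Phf1 were assigned to Cuta was not tested.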

How the data were processed

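Poly-A RNA of day 12 tdTomato+ neurons was sequenced in bulk, with 2 libraries labelled N/D and 2 labelled N/D/S. The authors pseudoaligned reads with kallisto 0.44.0 (GRCm38 in the submitters' processing notes) and deposited 1 TPM value per gene symbol and library. How transcripts were combined into genes, and the index release, are not given in the sources used here. TPM keeps no read counts, so depth is unknown and no counting interval is given.

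Symbols turned into dates were left out, and files were joined on symbol. Genes reaching 1 TPM in 2 or more libraries were fitted with limma 3.58.1 in R 4.3.3 on log2(TPM + 1), N/D/S against N/D, without covariates, with Benjamini-Hochberg adjustment over all 12975 genes and a threshold of 0.05. The fit was tested on simulated data. Within-library ratios used the same pseudocount of 1 and a two-sided exact permutation test. Gene positions came from GENCODE M21 on GRCm38 and promoters from RefSeq on GRCm38.p6. Python 3.11.15 with pandas 2.3.3, scipy 1.17.1 and matplotlib 3.10.9 was used.

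Conditions and replicate numbers came from the labels. The members, lists and alternatives were chosen with earlier results of these data known. All members are named, with list extremes, and the genes most like Ezh2 and Ezh1 by a fixed distance. Alternatives were pseudocounts of 0.1 and 0.5, other filters and scalings, a variance trend, replicate number as a block, and each library left out. Sleuth, the tool of the study's own test, was not run because the files hold no quantification replicates. A withheld item is not reported here.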

Additional observations from a re-analysis of the deposited data

How the results depend on the processing

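Of 80 values for the members from alternatives with all 4 libraries, 0 changed direction, and of 36 with 1 library left out, 8 did. For these the cause was not tested. With N/D replicate 1 left out, Ezh1 moved to 0.085 and Phf1 to −0.077. Without N/D replicate 2, Suz12 moved to 0.24 and Rbbp7 to 0.072. Without N/D/S replicate 2, Suz12 moved to 0.45, Rbbp7 to 0.27, Jarid2 to 0.42 and Mtf2 to 0.18. The ranges over the libraries left out were −1.69 to 0.085 for Ezh1, −1.52 to −0.35 for Ezh2, −3.93 to −0.17 for Eed, −0.70 to 0.45 for Suz12, 0.072 to 0.49 for Rbbp4, −0.66 to 0.27 for Rbbp7, −2.11 to 0.42 for Jarid2, −1.74 to 0.18 for Mtf2 and −0.077 to 3.999 for Phf1. The log2 ratio difference ranged from −0.43 to 0.16 for Ezh2 to Ezh1, from −0.79 to −0.17 for Rbbp7 to Rbbp4 and from 0.39 to 5.09 for Phf1 to Mtf2, and a pseudocount of 0.1 moved the last to 4.37.

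The number of genes past an adjusted p of 0.05 (limma, Benjamini-Hochberg) was 0 in the alternatives with all libraries, except 6 (5 higher, 1 lower, 0 members) when the prior variance followed mean expression. At an unadjusted p under 0.05 it was 8 as reported, and 486 with upper quartile scaling. With 1 library left out, the number past the adjusted threshold ranged from 0 to 2373, and for the members from 0 to 1 (Phf1). The 2373, 2213 of them higher, came without N/D replicate 2, when N/D replicate 1 stood alone for N/D and was taken to vary like the N/D/S libraries. Libraries of the same number did not deviate together (correlation of deviations from the line means across genes 0.0197). With the replicate block 0 genes and 0 members passed, and it changed no call. The median difference of all tested genes, 0.26, was 0.14 with upper quartile scaling, −0.049 with quantile normalization and −0.15 with at least 1 TPM in every library, a filter under which Phf1 could not be fitted. Depth is unknown, so what it limits was not assessed.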
